A study of Mus musculus with 10 samples.

Results

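The genes described here are 33 genes of mitosis and cytokinesis, named as a fixed list: kinases, cyclins and transcription factors of mitotic entry, the spindle checkpoint, centromere and chromosome proteins, spindle proteins and the machinery of cell cleavage. For each gene the value was taken from the probe set with the highest mean over all 10 arrays, among probe sets annotated to that gene alone. This gave 32 of the 33 genes, out of 18193 genes measured in all. No probe set carried the name Ccnb1 in the annotation used, so Ccnb1 was not analysed here. For 5 of the 32 (Foxm1, Bub1b, Cdc20, Aurkb and Kif2c) the probe set is of a type that Affymetrix marks as able to read related transcripts.

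The study compared primary mouse keratinocytes, the epithelial cells of the epidermis, labelled Sgpp1-/- (KO, 5 arrays, numbered 8, 9, 10, 21 and 23) with those labelled Sgpp1+/+ (WT, 5 arrays, numbered 1 to 5). Sgpp1 encodes sphingosine-1-phosphate phosphatase 1, which dephosphorylates the signalling lipid sphingosine-1-phosphate. Cells of both genotypes had grown for 3 to 4 days in EMEM with 0.05 mM calcium and 8% fetal calf serum, a low calcium level that is commonly used to keep such cells in a basal, dividing state. The labels give neither the age of the mice nor the allele, nor whether the arrays stand for separate animals or cultures, so p-values measure the spread between these samples, which may be technical. The titles also carry a running number that is lower on every WT array than on every KO array. What it stands for is not given, and genotype and that order cannot be told apart.

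Values are log2 signals from Affymetrix arrays, and all differences are KO minus WT. Array medians lay between 5.04 and 5.17 in KO and between 5.02 and 5.14 in WT. WT 1 had the lowest mean correlation with the other arrays, 0.955, against 0.967 to 0.977 for the rest. The keratinocyte keratin gene Krt5 averaged 12.73 ± 0.10 in KO and 12.78 ± 0.06 in WT (SD, n = 5 each). The targeted gene was not lower on the arrays labelled KO: Sgpp1 read 8.46, 9.01, 8.69, 8.92 and 9.03 on KO 8, 9, 10, 21 and 23, against 6.25, 7.82, 8.24, 8.34 and 7.70 on WT 1 to 5. All KO values lay above all WT values, with means of 8.82 ± 0.24 in KO and 7.67 ± 0.84 in WT (SD, n = 5 each) and a difference of 1.15 (SE 0.33, limma adjusted p = 0.102). Without WT 1 the difference was 0.80 and passed (limma adjusted p = 0.0356). Where the allele is disrupted relative to these probes is not given, and "KO" and "WT" below mean the arrays labelled so.

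Cells enter mitosis when cyclin A2 and the B-type cyclins activate the kinase CDK1, and they leave it when the anaphase-promoting complex (APC/C) with CDC20 marks cyclins for destruction. Transcripts of this machinery are made late in the cell cycle, through B-MYB, FOXM1 and the MuvB complex, and are repressed in resting cells by the DREAM complex. In the epidermis division belongs to the basal layer, and keratinocytes that leave it to differentiate stop cycling. In a culture, fewer dividing cells and less transcript per dividing cell cannot be told apart by these arrays.

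MuvB-containing complexes are known to bind the cell cycle genes homology region (CHR), with the core TTTGAA, and the factor NF-Y binds the CCAAT box that often lies near it. In the RefSeq promoter table (GRCm38.p6, from 250 bases before to 50 bases after the annotated start), 28 of the 33 genes had an entry, Ccnb1 included, and Ccna2, Foxm1, Aurkb, Tpx2 and Kif20a had none. On either strand, TTTGAA was found for 20 of the 28 (71.4%), against 15.7% of the 14452 measured genes with an entry and 20.2% of all 27025 genes in the table. CCAAT was found for 22 of the 28 (78.6%), against 42.0% of the measured genes and 41.1% of all. The variant TTCGAA, which reads the same on both strands, was found for 3 of the 28 (10.7%), against 2.23% and 1.8%. Both TTTGAA and CCAAT were found for 18 (64.3%), against 6.21% of the measured genes and 7.97% of all. A CCAAT and a TTTGAA can share at most 1 base. Neither element was found for Mybl2, Melk, Birc5 and Nusap1. A match describes the sequence and is not a binding site.

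The stretches below show the TTTGAA nearest the annotated start, on the upstream side, for the 2 genes past the threshold (Mki67 and Prc1), for the checkpoint target Cdc20, and for Kif11, Cdk1 and Ube2c, which stand for a spindle motor, the mitotic kinase and the APC/C machinery. Capitals mark TTTGAA and CCAAT or their reverse complements, TTCAAA and ATTGG, and each sequence reads 5′ to 3′ along the strand of its gene.
Mki67, chr7:135716460-135716557, minus strand: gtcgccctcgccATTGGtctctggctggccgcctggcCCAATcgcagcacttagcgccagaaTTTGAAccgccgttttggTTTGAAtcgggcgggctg
Prc1, chr7:80294366-80294457, plus strand: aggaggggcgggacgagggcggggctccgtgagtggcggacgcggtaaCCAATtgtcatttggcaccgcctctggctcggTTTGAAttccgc
Cdc20, chr4:118437344-118437441, minus strand: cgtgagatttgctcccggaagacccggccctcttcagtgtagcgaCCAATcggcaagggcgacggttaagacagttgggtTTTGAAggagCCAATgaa
Kif11, chr19:37376283-37376380, plus strand: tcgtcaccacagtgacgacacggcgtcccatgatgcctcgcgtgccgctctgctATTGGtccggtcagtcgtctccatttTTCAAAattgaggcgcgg
Cdk1, chr10:69352913-69353007, minus strand: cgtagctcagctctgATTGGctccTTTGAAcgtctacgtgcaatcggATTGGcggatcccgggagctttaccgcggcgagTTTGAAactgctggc
Ube2c, chr2:164769820-164769917, plus strand: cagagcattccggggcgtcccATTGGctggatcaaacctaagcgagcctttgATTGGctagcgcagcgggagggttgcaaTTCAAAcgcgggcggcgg
In these 6 promoters the last TTTGAA before the start, on the opposite strand in Kif11 and Ube2c, began 98 bases before it in Mki67, 30 in Prc1 (counted from the later of its annotated starts), 18 in Cdc20, 19 in Kif11, 15 in Cdk1 and 29 in Ube2c. The number of bases between it and the nearest CCAAT before it was 38 in Mki67, 27 in Prc1, 30 in Cdc20, 21 in Kif11, 28 in Cdk1 and 23 in Ube2c. Only promoters with a TTTGAA before the start could be shown this way, so these positions do not describe every gene. In Cenpf, Bub1b, Aurka, Cenpa, Plk1, Anln, Kif23, Ttk, Hmmr and Racgap1 it was found only after the start. Kif2c and Anln had a TTTGAA but no CCAAT.

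**Figure D1:**
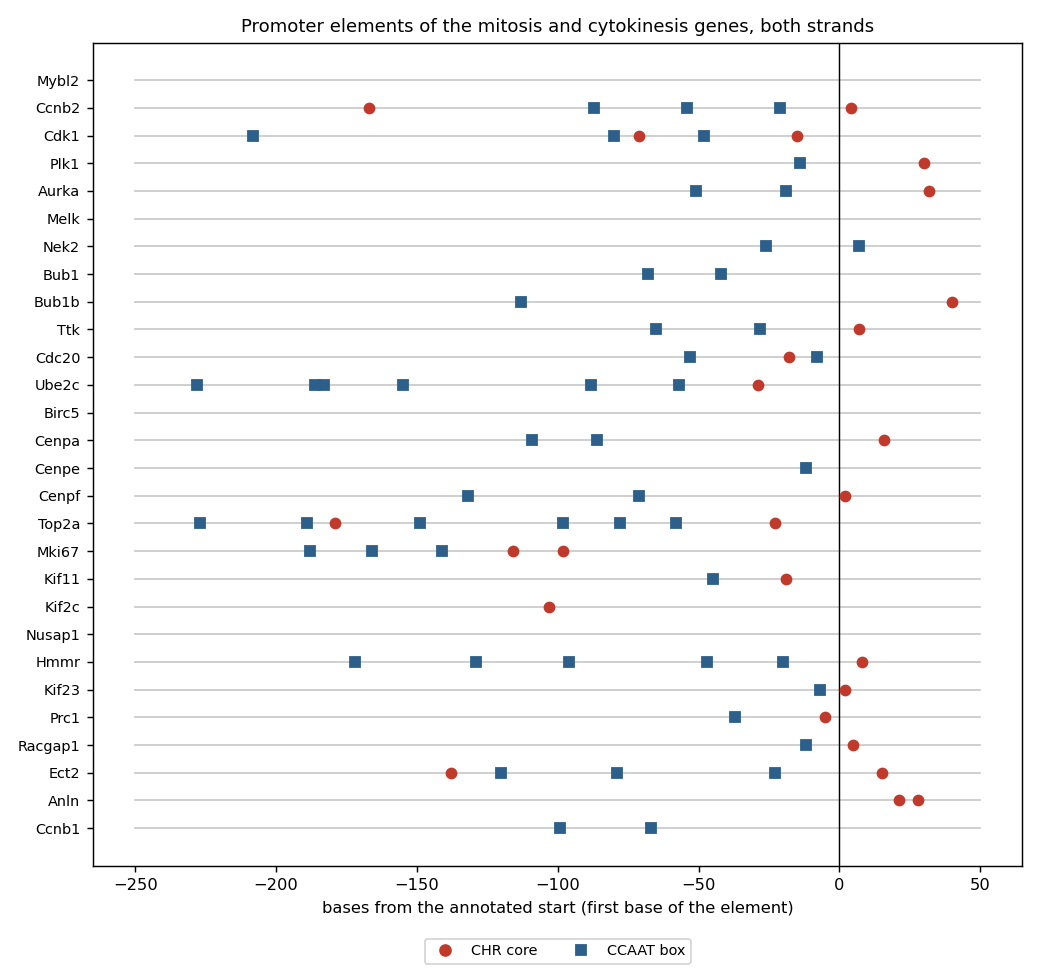
Position of CHR cores (TTTGAA, red circles) and CCAAT boxes (blue squares) on either strand in the promoters of the 28 genes with a RefSeq entry, as bases from the annotated start to the first base of the element. For genes with several annotated starts, 1 entry is drawn, which for Prc1 is the earlier start. Of the 28 genes, 20 have a CHR core and 22 a CCAAT box in this window.

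All 32 genes read lower on average in KO than in WT, and 2 of them passed the test. Mki67 fell 1.47-fold and Prc1 fell 1.92-fold. Over the 32 genes the differences ran from -1.08 (Ccna2) to -0.25 (Cenpa), with a median of -0.62, while the median over all 18193 genes was -0.01. A difference below 0 was found for 52.4% of all genes, and one of -0.5 or lower for 25 of the 32 genes and for 4.81% of all genes. With limma and Benjamini-Hochberg adjustment over all genes at 0.05, the 2 of 32 compare with 0.346% of all genes called lower in KO. None of the 32 was called higher, against 2.3% of all genes, and none had all 5 KO values above all 5 WT values, against 3.36% of all genes. The unadjusted limma p was under 0.05 for 24 of the 32, and for 5.65% of all genes in the same direction.

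**Figure D2:**
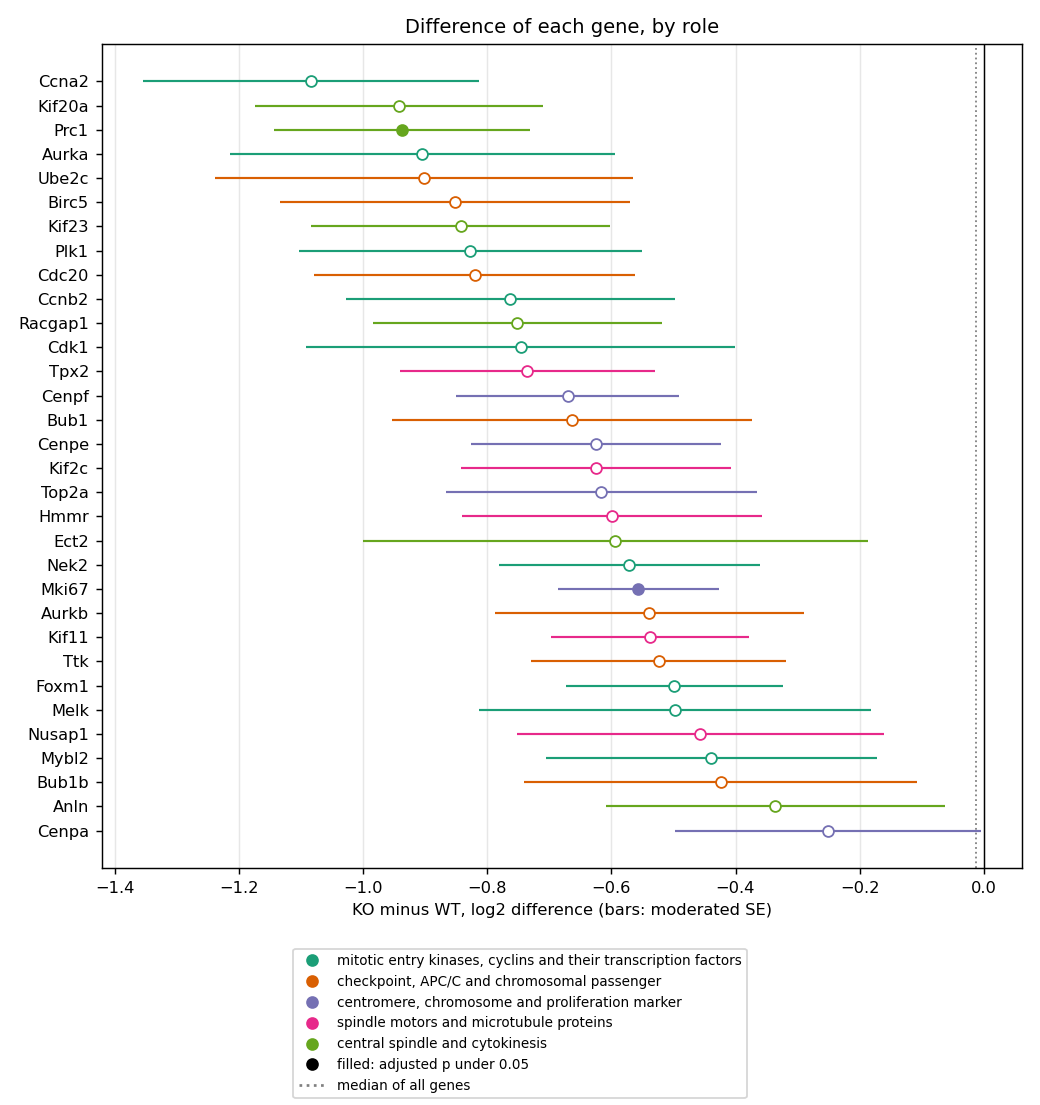
KO minus WT difference of log2 signal for each of the 32 genes (points) with its moderated standard error (bars), coloured by role and ordered by size. All 32 lie below 0, from -1.08 for Ccna2 to -0.25 for Cenpa, and the 2 filled points, Prc1 and Mki67, passed the threshold.

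The KO arrays did not read alike. The mean of the 32 genes, each set relative to its own 10-array mean, was 0.16 on KO 8, -0.60 on KO 9, -0.70 on KO 10, -0.65 on KO 21 and 0.15 on KO 23 (log2 signal). On WT 1 to 5 it was 0.02, 0.38, 0.09, 0.43 and 0.73. KO 8 and KO 23 thus lay inside the WT range and the other 3 KO arrays below it. Counted gene by gene, KO 10 lay below the lowest WT value for 28 of the 32 genes, KO 21 for 27 and KO 9 for 26, while KO 23 did so for 8 and KO 8 for 7. The same count over all genes gave 17.9% on KO 10, 24.0% on KO 21, 16.9% on KO 9, 14.8% on KO 23 and 12.4% on KO 8. WT 5 was the highest of all 10 arrays for 24 of the 32 genes. For 24 of the 32 genes the SD was larger in KO than in WT, with a median SD of 0.48 in KO and 0.37 in WT, while over all genes the median SD was 0.25 in KO and 0.30 in WT.

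**Figure D3:**
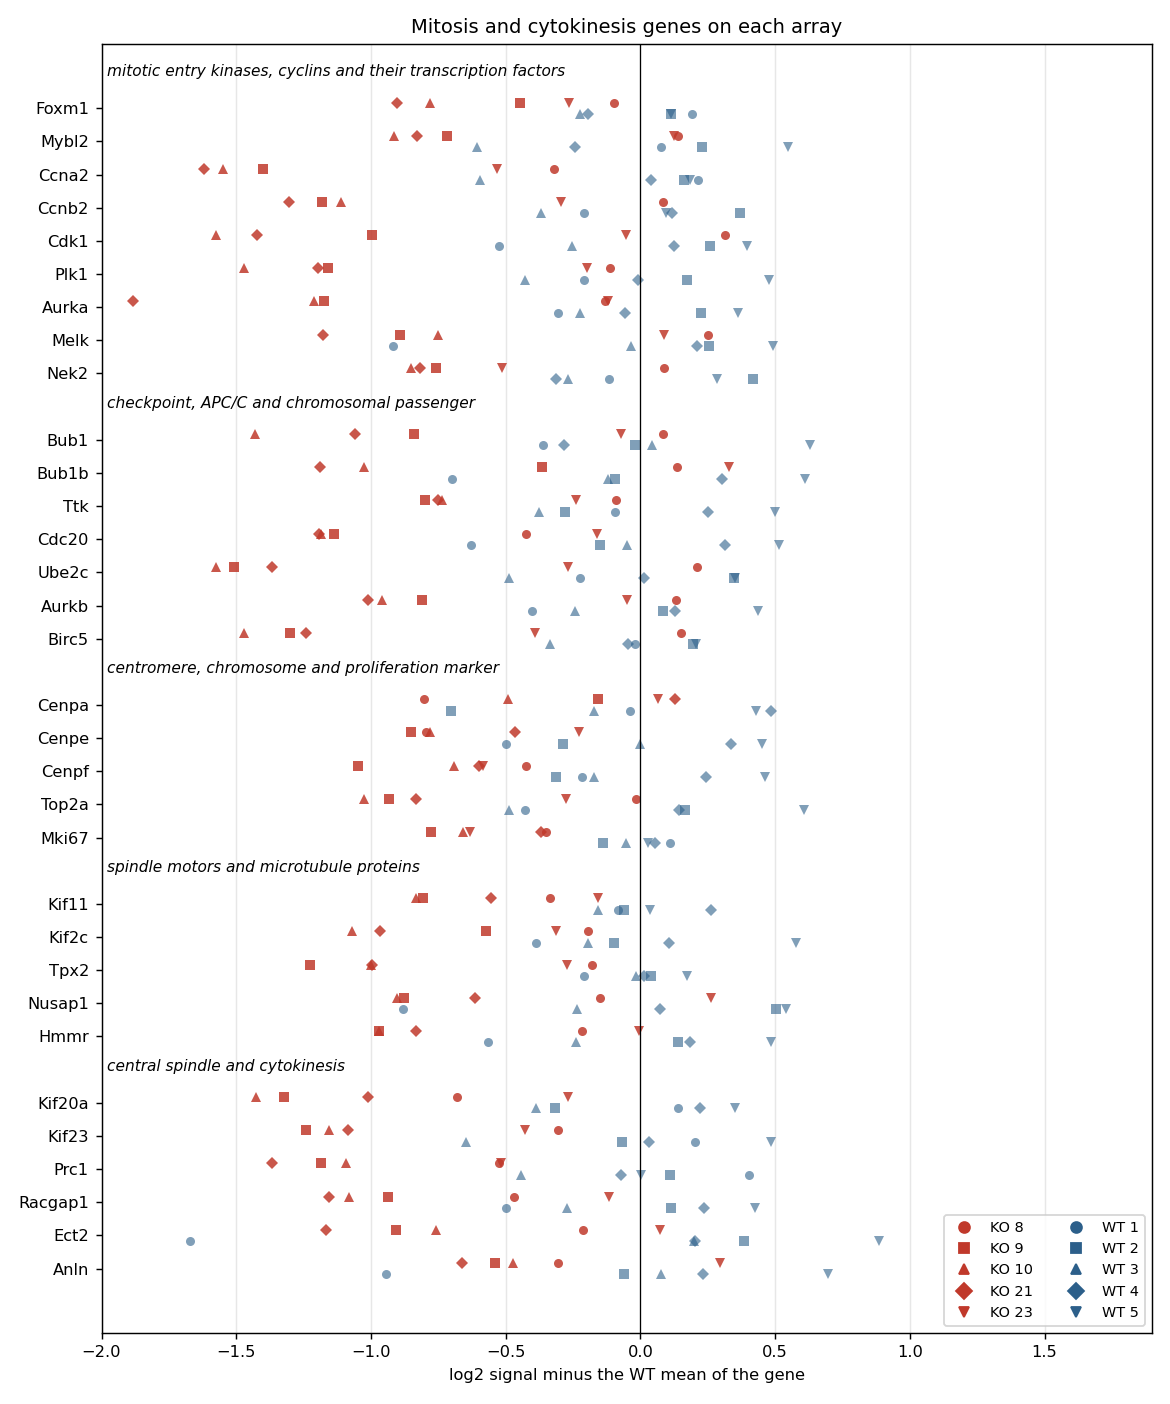
Log2 signal of each gene on each array minus that gene's WT mean, with KO arrays in red above WT arrays in blue and 1 symbol per array. KO 9, KO 10 and KO 21 lie to the left for most genes, and KO 8 and KO 23 lie among the WT arrays, except for genes such as Mki67, Prc1 and Cenpf, where all 5 KO points lie left of all 5 WT points.

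Mki67 encodes Ki-67, the proliferation marker that coats mitotic chromosomes. It read 10.54, 10.12, 10.24, 10.53 and 10.26 on KO 8, 9, 10, 21 and 23, against 11.0, 10.75, 10.84, 10.95 and 10.92 on WT 1 to 5. Every KO array lay below every WT array, and KO 8 and KO 21 were the highest of the KO arrays. The mean was 10.34 ± 0.19 in KO and 10.90 ± 0.10 in WT (SD, n = 5 each), a difference of -0.56 (SE 0.13, limma adjusted p = 0.0401). The call was lost without KO 9, KO 10, KO 23 or any single WT array, with limma adjusted p from 0.0526 (without WT 2) to 0.136 (without KO 9), and held without KO 8 or KO 21.

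Prc1 encodes the protein that bundles antiparallel microtubules into the central spindle. It read 8.03, 7.37, 7.46, 7.19 and 8.04 on the KO arrays in the same order, against 8.96, 8.67, 8.11, 8.48 and 8.56 on WT 1 to 5. The groups did not overlap, and KO 8 and KO 23 came closest to the lowest WT array, WT 3. The mean was 7.62 ± 0.39 in KO and 8.56 ± 0.31 in WT (SD, n = 5 each), a difference of -0.94 (SE 0.21, limma adjusted p = 0.0296). The call was lost without KO 9, KO 10, KO 21, WT 1, WT 2, WT 4 or WT 5, with limma adjusted p from 0.0559 (without WT 5) to 0.104 (without KO 9).

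Leaving out single arrays moved the count of called genes from 2 to 6 without KO 8, 5 without KO 23, 4 without WT 3, 1 without KO 21 and 0 without each of the other 6 arrays. The share of all genes called lower was 0.528% without KO 8, 0.588% without KO 23, 0.341% without WT 3, 0.11% without KO 21 and 0.0715% to 0.379% without the others. All 32 differences were below 0 in each of these 10 fits. In 4 of the 32 genes, Mki67, Prc1, Cenpf and Kif11, all 5 KO values lay below all 5 WT values, against 1.02% of all genes. That number was 8 without KO 8, against 2.52% of all genes, and 8 without WT 1, against 1.75% of all genes. Without WT 1, WT 2 and KO 8 it was 12, against 4.73% of all genes.

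The genes of mitotic entry comprise transcription factors, cyclins and kinases, and none of the 9 measured passed. Ccna2, the cyclin of S phase and early mitosis, had the largest difference of the 32 genes, reading 9.62, 8.54, 8.39, 8.32 and 9.41 on KO 8, 9, 10, 21 and 23, against 10.15, 10.10, 9.34, 9.98 and 10.12 on WT 1 to 5. Only WT 3 overlapped the KO values, since WT 3 read below both KO 8 and KO 23. The means were 8.86 ± 0.61 in KO and 9.94 ± 0.34 in WT (SD, n = 5 each), a difference of -1.08 (SE 0.27, limma adjusted p = 0.0571). Without WT 3 the difference was -1.23 with a limma adjusted p of 0.0333, and Ccna2 also passed without KO 8 (0.0198) and without KO 23 (0.0360).

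Cdk1 encodes the kinase that these cyclins activate. Its signals were 8.61, 7.30, 6.72, 6.87 and 8.24 on the KO arrays, against 7.77, 8.55, 8.04, 8.42 and 8.69 on WT 1 to 5. KO 8 read higher than every WT array but WT 5, and KO 10 read lowest, and the difference of -0.75 (SE 0.35, limma adjusted p = 0.388) did not pass. Ccnb2, a B-type cyclin gene, differed by -0.76 (limma adjusted p = 0.200), with KO 8 at 8.10 and KO 23 at 7.72, the other KO arrays at 6.71 to 6.91, and WT arrays at 7.65 to 8.38.

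Plk1 and Aurka encode kinases that mature the centrosomes and build the spindle. Plk1 had 6.81, 5.76, 5.45, 5.72 and 6.72 on the KO arrays, against 6.71, 7.09, 6.49, 6.91 and 7.40 on WT 1 to 5. Aurka had 7.32, 6.27, 6.24, 5.57 and 7.33 on the KO arrays, against 7.14, 7.67, 7.23, 7.39 and 7.81 on WT 1 to 5. In both genes KO 8 and KO 23 sat among the WT values and KO 9, KO 10 and KO 21 lay below all of them. The differences were -0.83 for Plk1 (limma adjusted p = 0.178) and -0.90 for Aurka (0.192).

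Foxm1 and Mybl2 encode factors that switch this programme on. Foxm1, the forkhead factor of late cell cycle genes, read 6.73, 6.38, 6.04, 5.92 and 6.56 on the KO arrays, against 7.02, 6.94, 6.60, 6.63 and 6.94 on WT 1 to 5. KO 8 alone overlapped the WT values, and the difference was -0.50 (SE 0.17, limma adjusted p = 0.204). The 3 other Foxm1 probe sets differed by -0.89, -0.49 and, for one of very low signal, -0.08. Mybl2, encoding B-MYB, read 4.80 to 5.86 in KO and 5.11 to 6.27 in WT, with a difference of -0.44 (limma adjusted p = 0.569). Nek2, encoding a kinase that splits the centrosomes, ran from 5.87 to 6.81 in KO and from 6.41 to 7.14 in WT. It differed by -0.57, and Melk, encoding a kinase made mostly in dividing cells, by -0.50. The lowest Melk value in WT was that of WT 1, at 5.96, against 6.84 to 7.36 on the other WT arrays.

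None of the 7 checkpoint, APC/C and chromosomal passenger genes passed, and their median difference was -0.66. Ube2c encodes the ubiquitin-conjugating enzyme of the APC/C, and Cdc20 its mitotic activator. Ube2c read 10.03, 8.31, 8.25, 8.45 and 9.56 on the KO arrays, against 9.60, 10.17, 9.33, 9.84 and 10.17 on WT 1 to 5, a difference of -0.90 (SE 0.34, limma adjusted p = 0.239). Cdc20 read 8.08, 7.36, 7.31, 7.31 and 8.34 on the KO arrays, against 7.87, 8.35, 8.45, 8.81 and 9.02 on WT 1 to 5, a difference of -0.82 (SE 0.26, limma adjusted p = 0.148). In both genes KO 9, KO 10 and KO 21 lay close together and below all WT arrays, and KO 8 and KO 23 lay inside the WT range.

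The chromosomal passenger complex corrects faulty attachments of chromosomes to the spindle. Its kinase gene Aurkb differed by -0.54 (limma adjusted p = 0.385) and Birc5, encoding its subunit survivin, by -0.85 (0.173). Birc5 read 8.32, 6.87, 6.70, 6.93 and 7.78 on the KO arrays, against 8.15, 8.37, 7.84, 8.13 and 8.38 on WT 1 to 5, so that KO 8 alone lay inside the WT range. The spindle checkpoint kinase genes Bub1, Bub1b and Ttk, whose products delay anaphase until chromosomes are attached, differed by -0.66, -0.42 and -0.52. Bub1 ran from 4.75 to 6.26 in KO and from 5.82 to 6.81 in WT, and Ttk from 6.35 to 7.06 in KO and from 6.78 to 7.65 in WT. In Bub1b KO 23, at 7.62, read above 4 of the 5 WT arrays, and only KO 10 and KO 21 lay below the lowest of them.

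Among the centromere and chromosome genes, Mki67 was the 1 of 5 that passed. Cenpf, encoding a large kinetochore protein, read 8.56, 7.94, 8.29, 8.39 and 8.40 on the KO arrays, against 8.77, 8.67, 8.81, 9.23 and 9.45 on WT 1 to 5. The groups did not overlap, and KO 8 was the highest KO array. The difference was -0.67 (SE 0.18, limma adjusted p = 0.0785). Top2a, encoding the topoisomerase that untangles chromosomes, differed by -0.62 with 7.34 to 8.35 in KO and 7.87 to 8.97 in WT.

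The order of the KO arrays was not shared by every gene. In 29 of the 32 genes KO 8 and KO 23 both read above KO 9, KO 10 and KO 21, and the 3 exceptions, chosen after their values were seen, were Mki67, Cenpe and Cenpa. Cenpe, encoding the kinetochore motor CENP-E, read 8.01, 7.96, 8.03, 8.34 and 8.58 on the KO arrays, against 8.31, 8.52, 8.81, 9.15 and 9.26 on WT 1 to 5. Another Cenpe probe set kept the common order, with KO 8 at 7.21 and KO 23 at 7.08, above the other KO arrays at 6.71 to 6.97. Cenpa, encoding the histone H3 variant of centromeres, read 6.13, 6.77, 6.44, 7.06 and 7.0 on the KO arrays, against 6.89, 6.23, 6.76, 7.41 and 7.36 on WT 1 to 5. KO 8 was the lowest of all 10 arrays for Cenpa, and the difference of -0.25 had a limma adjusted p of 0.783. Another Cenpa probe set had KO 8 at 6.47 and KO 23 at 6.70, above the other KO arrays at 5.54 to 5.76, and differed by -0.63. The probe sets of Cenpe, and those of Cenpa, therefore ordered the arrays differently. Probe sets could also disagree within the 29 genes. Another Ttk probe set had KO 8 lowest of the KO arrays, at 4.92, and KO 21 highest, at 6.20. Another of Top2a had KO 8 at 5.85 and KO 23 at 5.88, below KO 9 at 6.12 and KO 21 at 6.60. Other probe sets of further genes, such as Ccna2 and Tpx2, kept the common order.

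Of the 5 spindle motor and microtubule genes none passed. Tpx2, encoding the spindle assembly factor that activates Aurora A, read 7.93, 6.88, 7.11, 7.11 and 7.83 on the KO arrays, against 7.90, 8.15, 8.09, 8.12 and 8.28 on WT 1 to 5. KO 8 overlapped WT 1 alone, and the difference was -0.74 (SE 0.21, limma adjusted p = 0.0934). Without KO 8 it was -0.87 with a limma adjusted p of 0.0349, and it also passed without KO 23 (0.0493). Kif11, the motor gene whose product pushes the spindle poles apart, read 7.84, 7.37, 7.34, 7.62 and 8.02 on the KO arrays, against 8.09, 8.11, 8.02, 8.44 and 8.21 on WT 1 to 5. All KO values lay below all WT values, with KO 23 and WT 3 nearly equal, and the difference of -0.54 had a limma adjusted p of 0.121. Kif2c, encoding a microtubule depolymerase, Hmmr and Nusap1, encoding spindle-binding proteins, differed by -0.62, -0.60 and -0.46. Kif2c ran from 6.03 to 6.90 in KO and from 6.71 to 7.67 in WT, Hmmr from 6.13 to 7.09 in KO and from 6.53 to 7.58 in WT, and Nusap1 from 6.57 to 7.73 in KO and from 6.59 to 8.01 in WT. The groups overlapped in each of these 3 genes, and WT 1 was the lowest WT array in each.

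The central spindle and cytokinesis genes had the lowest median among the 5 roles, -0.80, and 1 of the 6, Prc1, passed. Kif20a, encoding the motor MKLP2 that carries the passenger complex to the central spindle, read 8.67, 8.02, 7.92, 8.33 and 9.08 on the KO arrays, against 9.48, 9.03, 8.96, 9.56 and 9.69 on WT 1 to 5. KO 23 alone overlapped the WT values, and the difference of -0.94 (SE 0.23) had a limma adjusted p of 0.0538. Without KO 23 it was -1.11 with an adjusted p of 0.0148, and Kif20a also passed without WT 3 (0.0477).

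Kif23 and Racgap1 encode the motor and the GTPase-activating subunit of centralspindlin, which recruits the RhoA activator ECT2 to the cleavage site. Kif23 read 8.19, 7.25, 7.33, 7.41 and 8.06 on the KO arrays, against 8.69, 8.42, 7.84, 8.52 and 8.98 on WT 1 to 5, a difference of -0.84 (limma adjusted p = 0.103). Only WT 3 lay inside the KO range, and without it Kif23 passed with a difference of -1.0 (limma adjusted p = 0.0392). Racgap1 read 6.89, 6.42, 6.28, 6.21 and 7.24 on the KO arrays, against 6.86, 7.47, 7.09, 7.60 and 7.79 on WT 1 to 5, with KO 8 and KO 23 inside the WT range. It differed by -0.75 (limma adjusted p = 0.142), and it passed without KO 23 with -0.91 (0.0487).

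Ect2 and the cleavage furrow scaffold gene Anln were the 2 of the 32 genes in which WT 1 was the lowest of all 10 arrays. Among the WT arrays alone, WT 1 was lowest for 15 of the 32 genes and WT 3 for 13. Ect2 read 6.04, 5.34, 5.49, 5.09 and 6.33 on the KO arrays, against 4.58, 6.64, 6.45, 6.46 and 7.14 on WT 1 to 5. For Anln WT 1 stood at 6.49, against 6.77 to 7.73 in KO. The differences of -0.59 for Ect2 and -0.34 for Anln had limma adjusted p of 0.634 and 0.714.

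The other probe sets of the genes were read to see whether 1 probe set stood for its gene. The 32 genes had 74 probe sets, and 23 genes had several. Of the 42 that did not stand for a gene, 40 had a negative difference, and the 2 that did not, of Nek2 (0.06) and Top2a (0.04), averaged under 3 on the log2 scale. The 26 with a mean of at least 5 had differences from -1.12 to -0.12 with a median of -0.57, and the 16 dimmer ones a median of -0.16. Tested over all probe sets with a single gene, 3 of the 74 passed, all lower in KO, against 0.223% of the 34945 single-gene probe sets called lower. They were the one that stood for Prc1 and others of Cenpe (-0.85, limma adjusted p = 0.0104) and Kif23 (-1.12, 0.0204). The Cenpe probe set read 7.21, 6.71, 6.97, 6.84 and 7.08 on the KO arrays, against 7.84, 7.76, 7.53, 7.81 and 8.12 on WT 1 to 5, with no overlap. Mki67 was not past the threshold in that wider test. Of the other genes without overlap, the other Prc1 probe set also showed none. Other probe sets of Cenpf and Kif11 did overlap. A Cenpf one ran from 6.54 to 7.03 in KO and from 6.37 to 7.90 in WT. A Kif11 one ran from 6.24 to 7.15 in KO and from 6.75 to 7.55 in WT.

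The rest of the mitotic machinery was read from 6 further lists, with 149 genes measured. Of these, 4 fell, against 0.346% of all genes called lower, and none rose, against 2.3% called higher. A negative difference was found for 130, against 52.4% of all genes, and the median was -0.39. The 4 were Kif18b, encoding a spindle motor, Ckap2l, encoding a spindle protein, Cit, encoding citron kinase of late cytokinesis, and Knl1, encoding a kinetochore scaffold. Kif18b fell 2.0-fold, Ckap2l 1.91-fold, Cit 1.69-fold and Knl1 1.69-fold, with limma adjusted p of 0.0346, 0.0497, 0.00957 and 0.0463. Cit read 6.68, 6.50, 6.54, 6.71 and 6.87 on the KO arrays, against 7.49, 7.21, 7.21, 7.5 and 7.69 on WT 1 to 5. For Cit the groups did not overlap, and KO 8 and KO 21 read nearly the same. The call of Cit held without each single array but was lost with the mean of its probe sets (-0.51, limma adjusted p = 0.0809), that of Knl1 held only without KO 23 or WT 3, and those of Kif18b and Ckap2l only without KO 8 or WT 3.

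By list, the median difference was -0.41 for 38 kinetochore and checkpoint genes, -0.51 for 19 genes of the passenger complex, condensin, cohesin and separase, -0.40 for 29 other spindle genes, -0.39 for 32 genes of mitotic entry and MuvB, and -0.34 for 15 other cytokinesis genes. The 16 APC/C genes had a median of -0.12 and none called. The count of the 6 lists together was 10 without KO 8, 9 without WT 3, 6 without KO 23, 2 without WT 1 and 1 without each of the other 6 arrays. The share of all genes called lower was 0.528%, 0.341%, 0.588% and 0.324% in the first 4 of these fits and 0.0715% to 0.379% in the other 6.

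**Figure D4:**
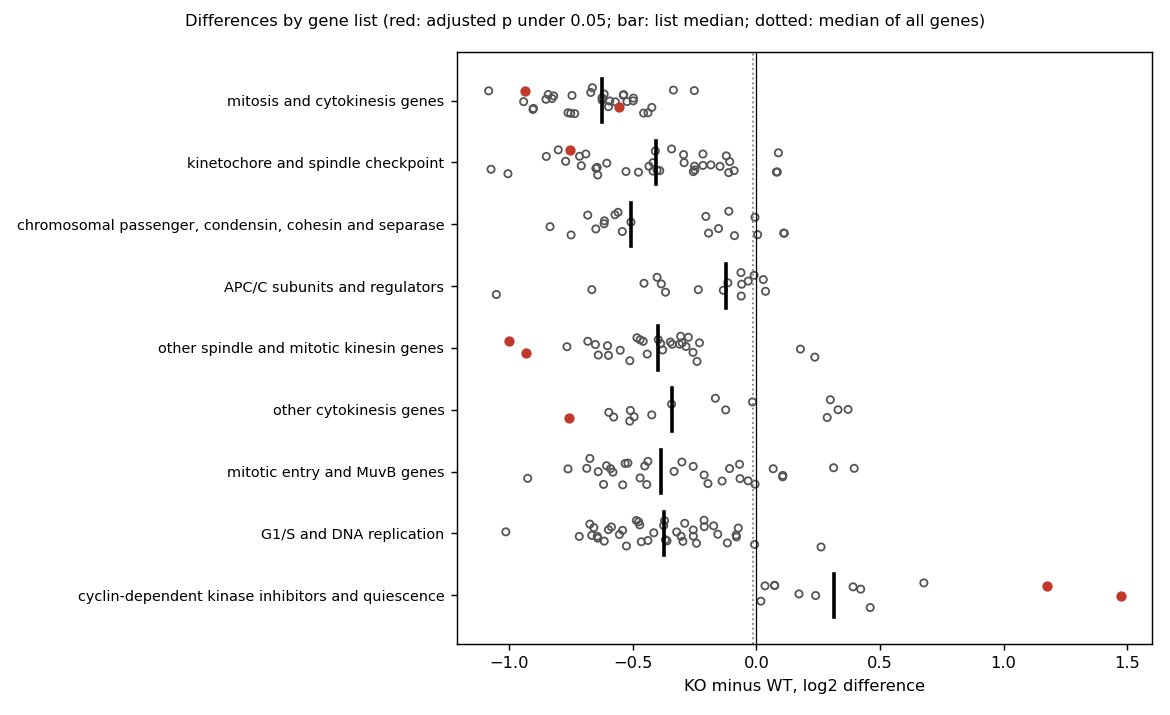
KO minus WT difference of log2 signal for each gene (points, red where the adjusted p was under 0.05) of the 32 mitosis and cytokinesis genes and of 8 other lists, with the list median as a bar and the median of all genes dotted. The medians lie between -0.62 and -0.12 for the mitosis and replication lists and at 0.32 for the kinase inhibitor and quiescence genes.

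Genes of the G1/S step and of DNA replication had a median difference of -0.37, and 39 of 40 were negative with none called. Their mean by array was 0.17, -0.37, -0.37, -0.47 and 0.07 on KO 8, 9, 10, 21 and 23, against 0.04, 0.30, -0.12, 0.14 and 0.60 on WT 1 to 5 (log2 signal relative to each gene's 10-array mean). Of 12 genes that restrain the cycle, the cyclin-dependent kinase inhibitors and quiescence genes, 2 rose and all 12 differences were above 0. Over all genes 2.3% were called higher, and 8657 of the 18193 had a positive difference. Mxd1, encoding a repressor that opposes MYC, rose 2.78-fold (limma adjusted p = 0.00293) and read 8.34, 8.61, 8.87, 7.98 and 7.98 on the KO arrays, against 6.33, 7.17, 6.75, 6.82 and 7.33 on WT 1 to 5. Btg1, encoding an antiproliferative factor, rose 2.26-fold (limma adjusted p = 0.0461), a call that was lost without KO 9, KO 10, KO 21, KO 23, WT 2, WT 4 or WT 5, with adjusted p from 0.0646 to 0.145. Its range was 10.11 to 10.81 in KO, against 8.20 to 9.88 in WT.

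Of 25 keratinocyte differentiation genes 22 rose, against 2.3% of all genes, with a median difference of 1.69. Hrnr and Lce1c, encoding proteins of the cornified layer, rose by 3.52 and 4.18 on the log2 scale, and Calm4, encoding a calmodulin-like protein of the epidermis, by 2.34, with limma adjusted p of 6.44e-05, 0.000346 and 0.000112. The mean of the list was 0.78, 1.13, 1.13, 0.85 and 0.73 on KO 8, 9, 10, 21 and 23, against -1.25, -0.88, -0.52, -1.35 and -0.62 on WT 1 to 5. Among the KO arrays, KO 9, KO 10 and KO 21, where the mitosis genes read lowest, had the highest of these means. KO 8 and KO 23, where the mitosis genes read highest, had the lowest. By the list median, however, KO 10 (0.71) read below KO 23 (0.73). The WT arrays did not all go this way. WT 1, lowest of them for the mitosis genes (0.02), read -1.25 here. WT 5, highest for the mitosis genes (0.73), read -0.62, while WT 4 (0.43) was lowest here. A link between mitosis and differentiation genes was not tested. All 5 KO arrays lay above every WT array in the mean of the differentiation list, KO 8 and KO 23 included. Of 14 basal keratinocyte genes none was called, with a median of 0.13.

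**Figure D5:**
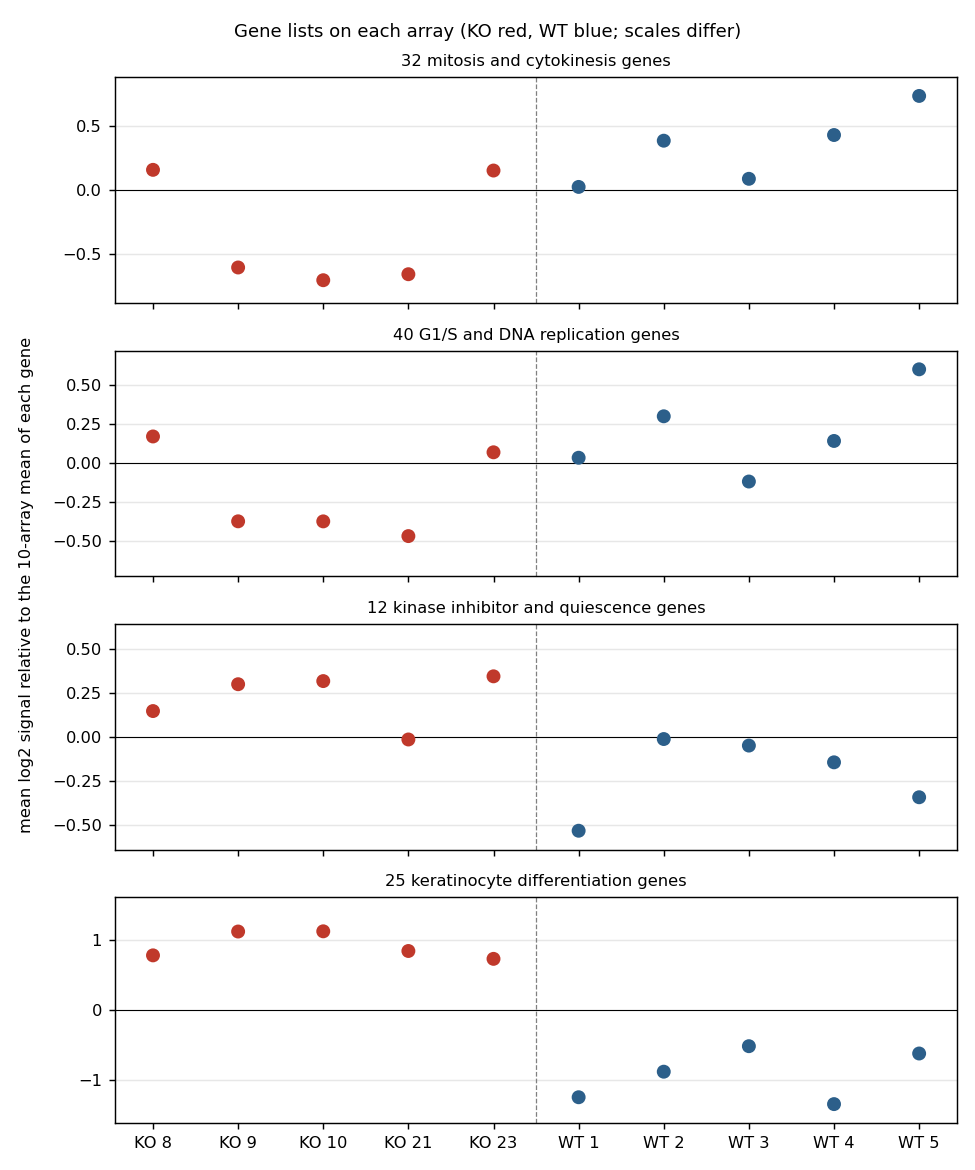
Mean log2 signal of 4 gene lists on each array, relative to the 10-array mean of each gene, with KO arrays at the left (red) and WT arrays at the right (blue) and a separate scale per panel. KO 8 (0.16) and KO 23 (0.15) lie in the WT range for the mitosis genes, while in the differentiation genes all 5 KO arrays (0.73 to 1.13) lie above all WT arrays.

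Other measures also differed between arrays. The Gapdh control signal at the 3′ end minus that at the 5′ end, a measure of how complete the labelled RNA is, was 1.63, 1.96, 2.10, 2.10 and 1.72 on KO 8, 9, 10, 21 and 23, against 1.72, 1.80, 2.01, 1.92 and 2.0 on WT 1 to 5 (log2). Among the KO arrays the 2 with the lowest values were KO 8 and KO 23. Among the WT arrays the lowest was WT 1, where the mitosis genes read lowest of the WT arrays. The Actb measure was 0.21, 0.21, 0.16, 0.18 and 0.26 on KO 8, 9, 10, 21 and 23, against 0.17 to 0.29 in WT. A link between these measures and the mitosis genes was not tested. In a fit that also held this Gapdh value as a term, added once the values had been seen, the median difference of the 32 genes was -0.62 and 7 were called, against 0.72% of all genes called lower. The summed linear signal of 11 fibroblast markers was 1537 on KO 8, 5655 on KO 9, 3314 on KO 10, 3921 on KO 21 and 9024 on KO 23, against 1402 to 21973 in WT, where WT 3 and WT 4 were highest. That of 9 melanocyte markers was 2701 to 8865 in KO, against 961 to 9101 in WT, and that of 9 myeloid and Langerhans markers 1139 to 3122 in KO, against 1870 to 3392 in WT. The difference was negative for 9 of the 11 fibroblast, 0 of the 9 melanocyte and 7 of the 9 myeloid and Langerhans markers. None of them was called, the groups overlapped in each sum, and the part of these cells in the mitosis result was not tested. Summed signals of 5 T cell, 5 endothelial and 6 muscle markers overlapped between the groups too, at 143 to 397, 58.7 to 89.9 and 102 to 220 in KO, against 70.2 to 1125, 74.6 to 91.0 and 77.4 to 801 in WT. The difference was negative for 0 of the 5 T cell, 4 of the 5 endothelial and 6 of the 6 muscle markers, the last with a median of -0.63. None of these was called, and their part in the mitosis result was not tested.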

How the data were processed

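The deposited values are log2 signals. The submitters' processing notes name RMA as the authors' tool, which corrects the background, brings all arrays to a common distribution and summarises the probes of a set. The version is not given in the sources used here. It compresses differences of dim genes and can hide a shift common to most genes. Per the labels' protocols, Trizol-extracted RNA (6 µg) was labelled with biotin. Of 45101 probe sets, 64 controls were left out of the gene tests, 34945 had 1 gene, 932 several and 9160 none. The gene table held the identifiers of 34741 of the single-gene probe sets and gave their current symbols. Promoters came from RefSeq (GRCm38.p6). The probe set with the highest mean stood for a gene. No filter or pseudocount was used. Differences were fitted with limma 3.58.1 in R 4.3.3 (lmFit, eBayes, two-sided) on 18193 genes, with Benjamini-Hochberg adjustment at 0.05, and checked on simulated data. SE is moderated. Precision is set by having 5 arrays in each group. Signals of different probe sets were not compared, apart from the 3′ and 5′ control signals of Gapdh and Actb. Marker signals were summed within each list. The genes, lists and tests were chosen with earlier results of these data known. Named besides the 32 genes were Sgpp1 and up to 3 called genes of each further list with the smallest adjusted p. Krt5 was named only to check the labelled cell type. Alternatives covered the probe set, a filter on dim genes, scaling, the variance model, array weights, the threshold and leaving out arrays.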

Additional observations from a re-analysis of the deposited data

Results flagged for a closer look

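In 66 groups of 5 arrays (the KO and the WT values of the 32 genes, and the mean of the genes), 2 values lay far from the other 4 of their group by Dixon's test at its 95% critical value of 0.71, and chance gives about 1 in 20 groups. The Ccna2 signal of WT 3, 9.34, stood below the other WT arrays (9.98 to 10.15), with a gap of 0.784 of the range. The Ect2 signal of WT 1, 4.58, stood below the other WT arrays (6.45 to 7.14), with a gap of 0.732 of the range. Without WT 3 Ccna2 passed the limma test, as given above.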

How the results depend on the processing

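All 32 genes had a negative difference under each of the 17 alternatives that refit the differences, 0 of their 544 refitted values reversed, and none of the 32 was called higher in any. The number called lower (2) was 5 with the mean of a gene's probe sets, 4 among genes with a mean of at least 5, 1 with array medians subtracted, 4 with trended and robust variances, 23 with array weights, 1 without WT 1, WT 2 and KO 8 (the arrays with the highest poly-A spike-in signal), 6 at a threshold of 0.1, 7 with the Gapdh covariate (chosen after the data were seen), and 0 to 6 without single arrays. Array weights ran from 0.227 for WT 1 to 2.46 for WT 4. They were 0.665 on KO 8 and 0.71 on KO 23, against 2.17 on KO 9, 1.80 on KO 10 and 0.883 on KO 21. KO 8 and KO 23, inside the WT range for the mitosis genes, thus counted least among the KO arrays. With these weights 561 of all genes were called lower (63) and 877 higher (419). That is 3.08% of all genes called lower with array weights. All genes called lower were 63 (0.346%) with the mean of probe sets and 40 (0.22%) with array medians subtracted. Among genes with a mean of at least 5 they were 75, for which no share of the filtered genes was computed. They were 65 (0.357%) with trended and robust variances and 43 (0.236%) without WT 1, WT 2 and KO 8. They were 144 (0.792%) at a threshold of 0.1, 131 (0.72%) with the covariate and 13 to 107 without single arrays. All genes called higher were 264 to 419 without single arrays. The 6 further mitosis lists (4 lower) gave 2 with the mean of probe sets, 2 with medians subtracted, 48 with array weights, 12 at 0.1, 11 with the covariate and 1 to 10 without single arrays. The genes whose groups did not overlap (4) were 12 without WT 1, WT 2 and KO 8, and 4 to 8 without single arrays. The median difference ran from -0.90 to -0.50. No paired analysis was possible because the groups share no array number. The cause of these changes was not tested.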
